A study of Mus musculus with 9 samples.

Results

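Gene expression in the uterus was compared between mice given bisphenol AF (BPAF) and mice given bisphenol B (BPB), with 3 libraries in each group out of 9 libraries in the series. A gene entered the comparison when its symbol was unique and its level reached 1 FPKM (fragments scaled to transcript length and library size) in at least 3 of the 6 libraries. This left 13269 genes of 34619 unique symbols. All mice were female, of genotype WT and of the outbred stock CD-1 (ICR), bought at 7 to 8 weeks of age, acclimatized for 1 week and kept on estrogen-free food. Each bisphenol was given by gavage for 28 days at a daily dose of 300 µg per kg body weight, and the 3 control libraries came from mice given corn oil. The stage of the estrous cycle at collection is not given in the sources used here, and no label states that each number is another mouse, so p-values measure the spread between these samples.

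BPB and BPAF share a pair of phenol rings joined through a central carbon. The substituents of this carbon are methyl and ethyl in BPB, whereas both are trifluoromethyl in BPAF. The doses were equal by mass, and BPAF is the heavier molecule, so fewer molecules of it were given. This was the only pair of compounds compared. Bisphenols bind estrogen receptors, and estrogen drives growth, secretion and fluid uptake in the uterine epithelium. The uterine wall consists of a lining epithelium with glands, a stroma and the myometrium, a smooth muscle that contracts through actin, myosin and calcium-handling proteins. The bladder, a neighbouring organ, also has a smooth muscle wall, and its lining, the urothelium, is known for the uroplakins, membrane plaque proteins.

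The 6 libraries rested on 12821640 (BPAF 1) to 15617000 (BPB 2) reads, as estimated from the step between FPKM values, at which 1 read on a transcript of 1 kilobase amounts to 0.0640 to 0.0780 FPKM. They held 12636 to 13105 genes at 1 FPKM or more, and the mitochondrially encoded genes took 5.81% to 8.31% of the reads. The 3 BPAF libraries were less alike than the 3 BPB libraries. On log2(FPKM + 1) over the tested genes, BPAF 1 correlated at 0.888 with BPAF 2 and 0.861 with BPAF 3, and BPAF 2 with BPAF 3 at 0.858, against 0.904 to 0.943 among the BPB libraries. Each BPAF library correlated best with a library outside its group, BPAF 1 with BPB 1 at 0.951, BPAF 2 with control 2 at 0.919 and BPAF 3 with BPB 3 at 0.865. These correlations are descriptions over genes that share libraries.

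BPAF 1 was set apart from BPAF 2 and 3 by urothelial genes. Upk3a, a uroplakin, was at 335, 484 and 547 FPKM in BPB 1 to 3, at 323 in BPAF 1 and at 0 in BPAF 2, BPAF 3 and all controls. Over the 17 genes of the urothelium list the mean of log2(FPKM + 1) was 5.84, 6.54 and 6.62 in BPB and 5.73, 1.45 and 1.04 in BPAF, beside 1.38 to 1.84 in controls. The summed level of these genes was 2257 to 3773 FPKM in BPB, 2009 in BPAF 1, and 223 and 53.7 in BPAF 2 and 3, with 174 to 298 in controls. Shh, a signal made by urothelium, and Foxa1 were likewise at 0 in BPAF 2, BPAF 3 and every control. The uterine label was checked against the list of uterine luminal epithelium, whose mean level lay between 4.67 and 6.04 in all 6 libraries. The calls and the list medians below are also given without BPAF 1. In bulk tissue, fewer cells of a type and less RNA per cell cannot be told apart.

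**Figure D1:**
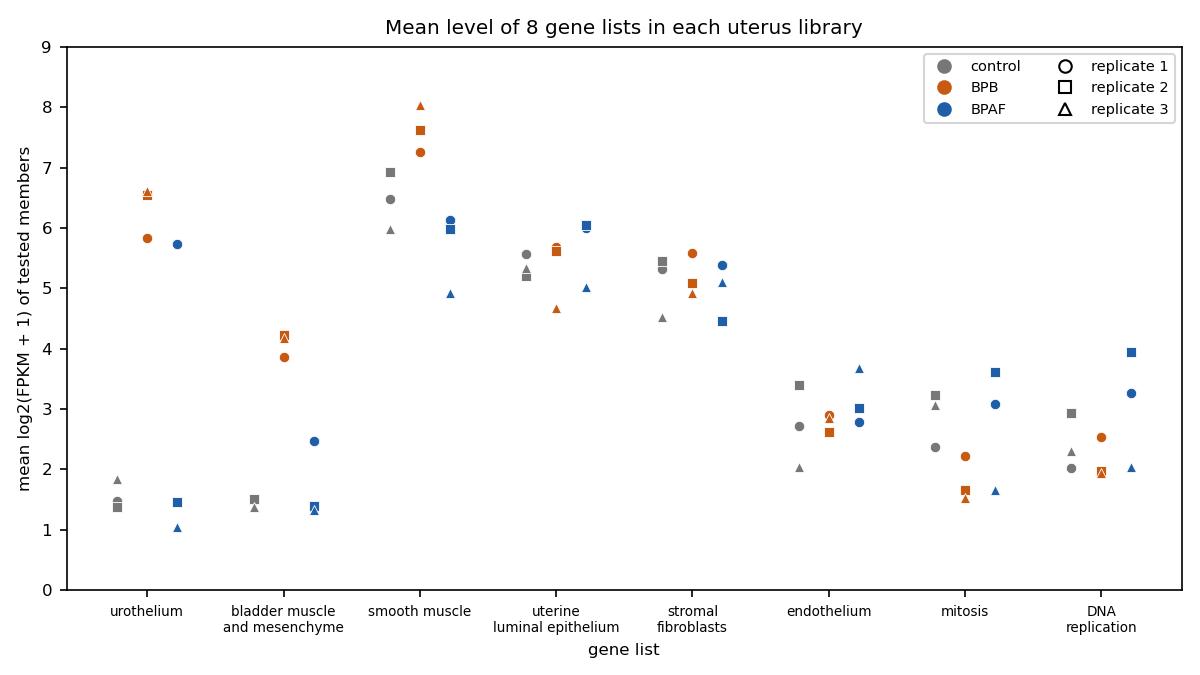
Mean log2(FPKM + 1) of the tested members of 8 gene lists in each of the 9 libraries (grey controls, orange BPB, blue BPAF; circles, squares and triangles are replicates 1, 2 and 3). On the urothelium list BPAF 1, at 5.73, lies beside the BPB libraries and BPAF 2 and 3 beside the controls, whereas on the smooth muscle list all 3 BPAF libraries, at 4.92 to 6.13, lie below all 3 BPB libraries, at 7.25 to 8.04.

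Across all tested genes, 38 fell in BPAF relative to BPB (0.286% of the genes tested) and 0 rose (0.0%), by limma at a Benjamini-Hochberg adjusted p under 0.05. The fit held all 9 libraries, so the controls entered its estimate of the spread. Fitted to the 6 exposed libraries alone, limma called 0 genes lower. Of the 38 genes, 20 code for receptors (5), transcription factors (8) or proteins of muscle structure (7). Their log2 differences ran from -5.19 to -1.39, with limma adjusted p from 0.0262 to 0.0490, and in all 38 the 3 BPAF libraries lay below the 3 BPB libraries. The background for such separation was 6.53% of tested genes with BPAF below BPB and 6.5% with BPAF above. The mean was lower in BPAF in 5465 tested genes (41.2%) and higher in 7804. The median difference over all tested genes was 0.07, so the typical gene was at about the same level in both groups.

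The 38 calls depend on how the libraries are combined. Samples with the same number in the BPB and BPAF groups deviated together from their group means, at correlations of 0.332 to 0.457. BPB and BPAF libraries of different numbers correlated at -0.318 to -0.093. Some controls deviated as much with exposed libraries of another number. Those correlations ran from -0.238 (control 2 with BPAF 1) to 0.458 (control 3 with BPB 1). With the replicate number as a block in the fit of all 9 libraries 0 genes passed, with a smallest limma adjusted p of 0.121, and same-numbered controls did not deviate with the exposed libraries. With the block in the 6 exposed libraries alone, a fit chosen after seeing the data, 0 genes passed and 1739 had an unadjusted p under 0.05. Without the block, the same 6 libraries gave 0 genes lower, and 1089 had an unadjusted p under 0.05. In all 9 libraries this count was 830 with the block and 912 without. With a pseudocount of 0.1 or 0.01, 0 genes were called lower. Without BPAF 1, limma called 251 genes lower (1.89%) and 6 higher (0.0452%), and the 38 were all among them, with log2 differences from -6.38 to -1.47 and limma adjusted p from 0.000159 to 0.0393. Without BPAF 2, BPAF 3, BPB 2, BPB 3 or any 1 control, limma called 0 genes lower and 0 higher, and without BPB 1 it called 45 lower and 1 higher. With the urothelium mean as a covariate 0 passed and 314 had an unadjusted p under 0.05. The log2 differences of the 38 genes were then -3.04 to -0.96 with a median of -1.64, against a median of -2.12 without the covariate. The log2 differences of the 38 genes were below 0 in all 845 values that 23 other settings gave for them. These genes were called in the same libraries without overlap of the groups. Their sign could therefore hardly turn in most settings, and its constancy adds no support to the calls.

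In the BPB libraries these 38 genes lay above the controls, and the BPAF libraries differed among themselves. All 3 BPB libraries lay above all 3 controls in 38 of 38, against 20.2% of all tested genes. The 38 were called for levels higher in BPB than in BPAF. A gene could also enter the comparison through the 3 BPB libraries alone, so this count describes genes selected on the same BPB values. BPAF 1 lay above all 3 controls in 23 of the 38, against 39.6% of all tested genes. BPAF 2 and BPAF 3 were at or below the highest control in 27, against 46.9%, and all 3 BPAF libraries were in 14, against 38.6%. The mean level was under 1 FPKM in 25 of the 38 genes in controls and in 24 in BPAF. BPAF 1 was above BPAF 2 and 3 in 33, against 34.5% of all tested genes. Its level was a median 16.8% of the BPB mean (2.28% to 39.4%), and that of BPAF 2 and 3 was a median 6.65% (0% to 24.5%). Against the controls, limma called 291 genes higher (2.19%) and 49 lower (0.369%) in BPB and 0 in BPAF (0.0%). These 3 comparisons share libraries.

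**Figure D2:**
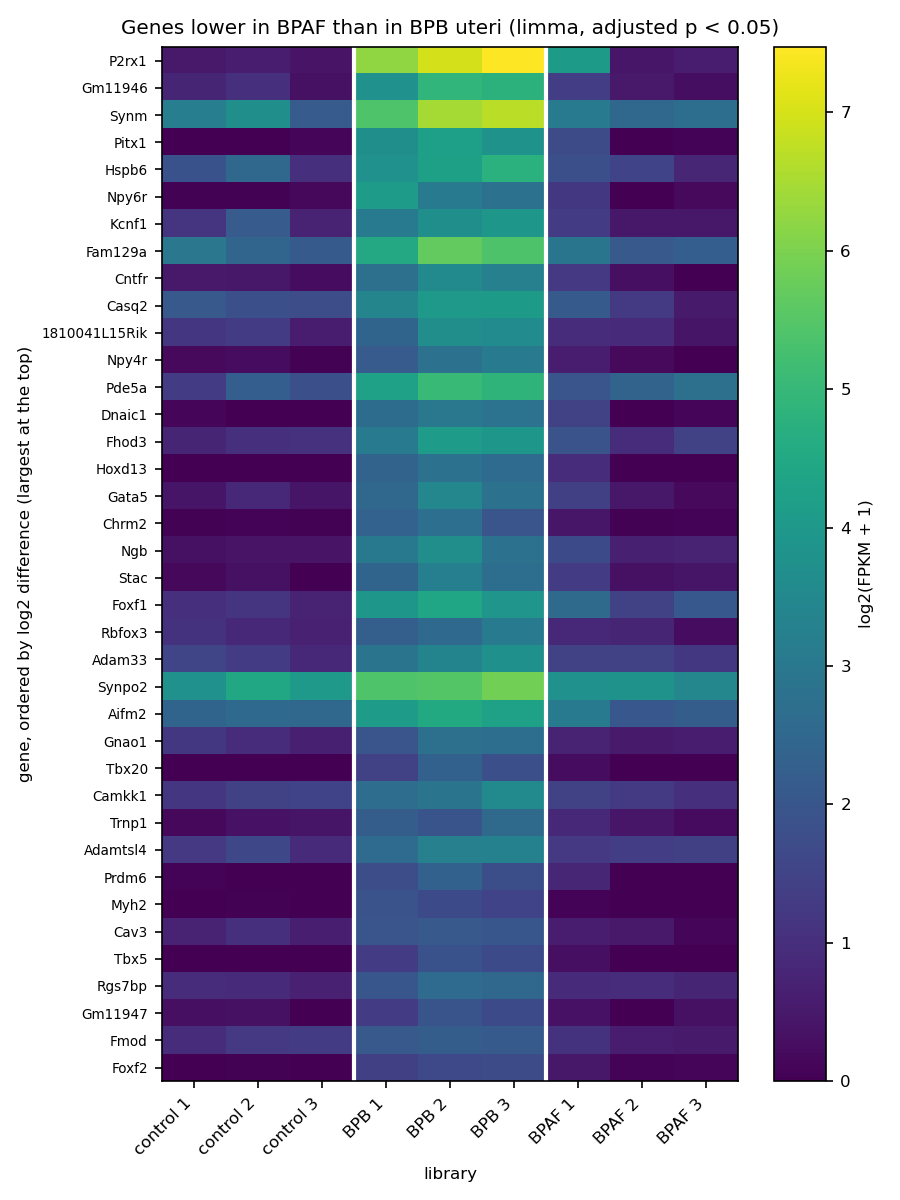
Level as log2(FPKM + 1) of the 38 genes that fell in BPAF relative to BPB, in rows, in the 9 libraries, in columns. BPB is brightest in every row, and BPAF 1 is brighter than BPAF 2 and 3 in 33 of the 38 rows.

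The 38 genes were sorted by the role of their product after their values had been seen, and the groups are descriptions. Receptors were 5. P2rx1, the ATP-gated channel through which nerves contract bladder muscle, was at 74.5, 126 and 177 FPKM in BPB and at 15.9, 0.367 and 0.510 FPKM in BPAF, beside 0.309 to 0.474 FPKM in controls. It fell by 5.19 on the log2 scale (SE 0.83, limma adjusted p = 0.0455) and, without BPAF 1, by 6.38 (limma adjusted p = 0.000159). The groups did not overlap, and BPAF 1 stood far above the controls, BPAF 3 just above them and BPAF 2 within their range. Chrm2, a muscarinic acetylcholine receptor of smooth muscle, was at 4.07, 5.62 and 2.91 FPKM in BPB and at 0.363, 0.0330 and 0.0480 FPKM in BPAF. Its log2 difference was -2.16 (SE 0.24, limma adjusted p = 0.0262), and BPAF 2 and 3 lay within the control range of 0.0213 to 0.0579 FPKM.

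Npy4r and Npy6r, receptors of the neuropeptide Y family, fell by 2.42 (SE 0.28) and 2.87 (SE 0.40) on the log2 scale, with limma adjusted p of 0.0325 and 0.0346. Npy6r was at 16.4, 7.53 and 5.87 FPKM in BPB and at 1.31, 0 and 0.146 FPKM in BPAF. Cntfr, the binding subunit for ciliary neurotrophic factor, was at 5.77, 10.7 and 8.45 FPKM in BPB and at 1.37, 0.229 and 0 FPKM in BPAF (log2 difference -2.67, SE 0.34, limma adjusted p = 0.0336). In all 5 receptors BPAF 1 was the highest BPAF library and lay above every control.

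Transcription factors were 8, with log2 differences from -3.33 to -1.39. Pitx1, a homeobox factor of the hindlimb and lower body, was at 12.2, 17.7 and 13.4 FPKM in BPB and at 2.29, 0 and 0.0483 FPKM in BPAF, beside 0, 0 and 0.102 FPKM in controls. It fell by 3.33 on the log2 scale (SE 0.42, limma adjusted p = 0.0336). Hoxd13, the most posterior gene of its Hox cluster, was at 4.22, 5.91 and 5.08 FPKM in BPB, at 0.911, 0 and 0 FPKM in BPAF and at 0 in all controls (log2 difference -2.28, SE 0.28, limma adjusted p = 0.0336). Both genes were thus near 0 outside BPB and BPAF 1. Tbx5 and Tbx20, T-box factors known from heart development, were at 0 in all controls, BPAF 2 and BPAF 3, and BPAF 1 was at 0.249 and 0.181 FPKM. In BPB, Tbx5 was at 1.52, 2.66 and 2.20 FPKM and Tbx20 at 1.76, 3.97 and 2.53 FPKM. Foxf1 and Foxf2, forkhead factors of mesenchyme around gut and urogenital tract, fell by 2.07 (SE 0.31, limma adjusted p = 0.0385) and 1.39 (SE 0.20, limma adjusted p = 0.0372) on the log2 scale. Gata5, a zinc finger factor, and Prdm6, a repressor expressed in smooth muscle, completed the group. BPAF 1 was the highest BPAF library and lay above every control in 8 of 8.

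Muscle structure accounted for 7 of the 38 genes. Synm codes for synemin, an intermediate filament protein of muscle. It was at 41.5, 87.5 and 103 FPKM in BPB, at 7.36, 4.69 and 5.47 FPKM in BPAF and at 3.41 to 12.3 FPKM in controls (log2 difference -3.44, SE 0.45, limma adjusted p = 0.0336). Here BPAF 1 stood within the control range. Hspb6, a small heat shock protein tied to smooth muscle relaxation, was at 12.7, 18 and 26.2 FPKM in BPB and at 2.53, 1.82 and 0.728 FPKM in BPAF (log2 difference -2.89, SE 0.43, limma adjusted p = 0.0381). Casq2, a calcium store protein of the sarcoplasmic reticulum, was at 9.63, 15.1 and 15.8 FPKM in BPB and at 3.29, 1.40 and 0.443 FPKM in BPAF. Synpo2, an actin-bundling protein of the Z-disc, was at 41.3, 43.7 and 58.4 FPKM in BPB and at 12.8, 13.3 and 10.1 FPKM in BPAF, with 12.6 to 20.8 FPKM in controls. Casq2 and Synpo2 fell by 2.53 (SE 0.38, limma adjusted p = 0.0381) and 1.89 (SE 0.26, limma adjusted p = 0.0336). Fhod3, a formin of the sarcomere, Cav3, the muscle caveolin, and Myh2, a fast skeletal myosin heavy chain, were the other genes of the group. Myh2 was at 2.73, 2.19 and 1.84 FPKM in BPB and at 0.0514 FPKM or less in every other library (log2 difference -1.66, SE 0.18, limma adjusted p = 0.0262). In this group BPAF 1 lay above every control in 3 of 7.

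Signalling proteins were 6. Pde5a, which breaks down cyclic GMP and so limits smooth muscle relaxation, was at 18.4, 32.2 and 28.0 FPKM in BPB and at 2.95, 4.15 and 5.77 FPKM in BPAF, beside 1.52 to 3.72 FPKM in controls. It fell by 2.36 on the log2 scale (SE 0.33, limma adjusted p = 0.0346), and BPAF 1 was the lowest of the BPAF libraries. Kcnf1, a modulatory potassium channel subunit, was at 7.47, 12.2 and 14.4 FPKM in BPB and at 1.51, 0.400 and 0.390 FPKM in BPAF (log2 difference -2.82, SE 0.41, limma adjusted p = 0.0381). Gnao1, Rgs7bp, Camkk1 and Stac, which act in G protein and calcium signalling, were the other members. Matrix proteins and proteases were 3, Fmod, Adamtsl4 and Adam33, with log2 differences from -1.96 to -1.40. Fam129a, also called Niban, was at 21.6, 50.7 and 40.5 FPKM in BPB and at 6.42, 3.23 and 3.66 FPKM in BPAF (log2 difference -2.79, SE 0.38, limma adjusted p = 0.0336). Dnaic1, an axonemal dynein chain, was at 5.20, 6.97 and 6.25 FPKM in BPB and at 1.72, 0 and 0.0987 FPKM in BPAF (log2 difference -2.30, SE 0.35, limma adjusted p = 0.0393). Ngb, Rbfox3, Trnp1 and Aifm2 also stood outside these roles, and 3 loci carried no gene name. The unnamed loci Gm11946 and Gm11947 overlap Smtn, which codes for the smooth muscle protein smoothelin, in GENCODE M21, and whether the counting used the strand is not given in the sources used here. Reads in shared exons may therefore not be told apart, but the overlap was taken over whole gene spans and shared exons were not checked. Spans also overlapped for, among others, Synm with Ttc23, Hspb6 with Proser3 and Lin37, Fhod3 with Tpgs2, Dnaic1 with Enho and Aifm2 with H2afy2.

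Of 43 gene lists, 4 held a gene that fell, and 0 held a gene that rose. The lists were written with earlier results of these data known, so counts over their members are descriptions and no independent support. Genes that passed are named whatever their size, and Upk3a, Shh, Hoxa13, Cnn1 and Myl9, which did not, are named after their values had been seen. The list of bladder muscle and mesenchyme had 4 of 8 tested members among the 38 (background 0.286%), namely P2rx1, Pitx1, Hoxd13 and Chrm2. BPAF lay below BPB without overlap in 7 of 8, against 6.53% of all tested genes. The list's median log2 difference was -2.22, against 0.07 over all tested genes, and -2.59 without BPAF 1. Hoxa13, the posterior Hox gene paired with Hoxd13 in urogenital development, was at 4.05, 6.14 and 5.10 FPKM in BPB and at 1.64, 0 and 0 FPKM in BPAF, and narrowly missed the threshold (log2 difference -2.13, SE 0.37, limma adjusted p = 0.0575). Bmp4, a secreted growth factor, was at 6.83, 9.27 and 6.54 FPKM in BPB and at 6.14, 3.91 and 5.15 FPKM in BPAF, a log2 difference of -0.50 with a 95% interval from -1.18 to 0.18. BPAF 1 held a median 16.9% of the BPB mean on this list, and BPAF 2 and 3 held 0.657%.

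The smooth muscle list had 3 of 20 tested members among the 38 (background 0.286%), namely Synm, Casq2 and Synpo2. All 20 had BPAF below BPB without overlap, beside a background of 6.53%. The median log2 difference was -1.83, ranging from -3.44 to -1.28, and -2.13 without BPAF 1. Myh11, the smooth muscle myosin heavy chain, was at 534, 1065 and 1222 FPKM in BPB, at 169, 229 and 87.8 FPKM in BPAF and at 239 to 503 FPKM in controls. Its log2 difference of -2.55 (SE 0.48) had a limma adjusted p of 0.0856. Cnn1, the calponin of differentiated smooth muscle, was at 712, 735 and 1104 FPKM in BPB and at 265, 251 and 65.4 FPKM in BPAF, with 266 to 504 FPKM in controls (log2 difference -2.34, SE 0.54, limma adjusted p = 0.169). For both genes BPB stood above and BPAF below the controls, and BPAF 3 was the lowest library. BPAF 3 was the lowest BPAF library in 18 of the 20 genes. The median difference from the controls was 1.12 in BPB and -0.75 in BPAF.

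Shared regulatory letters were looked for in the promoters of the genes that moved together, in RefSeq sequence of build GRCm38.p6 that holds the 250 bases before each transcript start. The CArG box, the element that serum response factor binds in muscle genes, was searched on both strands, where it reads alike, and no other motif was searched. It was present in 1 of 17 promoters of the smooth muscle list (16 genes matched) and in 1 of 37 promoters of the 38 genes that fell (27 genes matched), and in 1.47% of 32851 promoters of the same length overall. The 2 promoters are shown because they are the only matches, with the box in capitals. Myl9 codes for the regulatory light chain of smooth muscle myosin, and its promoter lies at chr2:156775214-156775463 on the plus strand, with the box starting 161 bases before the transcript start. Trnp1, a nuclear protein known from brain growth, has its promoter at chr4:133498551-133498800 on the minus strand, with the box 180 bases before the start.
Myl9: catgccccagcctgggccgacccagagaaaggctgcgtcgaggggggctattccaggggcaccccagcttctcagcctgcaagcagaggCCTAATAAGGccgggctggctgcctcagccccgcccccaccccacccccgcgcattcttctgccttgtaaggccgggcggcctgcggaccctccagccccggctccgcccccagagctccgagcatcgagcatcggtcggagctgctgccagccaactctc
Trnp1: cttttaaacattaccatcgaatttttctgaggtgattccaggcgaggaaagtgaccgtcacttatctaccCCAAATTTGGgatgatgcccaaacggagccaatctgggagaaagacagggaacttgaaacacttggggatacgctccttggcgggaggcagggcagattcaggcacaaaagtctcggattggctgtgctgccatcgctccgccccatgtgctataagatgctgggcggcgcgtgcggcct
Myl9 was at 582, 698 and 784 FPKM in BPB and at 289, 448 and 110 FPKM in BPAF (log2 difference -1.49, SE 0.48, limma adjusted p = 0.406). Trnp1 was at 3.60, 2.82 and 5.03 FPKM in BPB and at 0.799, 0.380 and 0.160 FPKM in BPAF (log2 difference -1.73, SE 0.25, limma adjusted p = 0.0372). The groups did not overlap for either gene, and of the pair only Trnp1 passed.

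On the contraction receptor list 2 of 11 tested members fell, Chrm2 and P2rx1 (background 0.286%). The groups were apart with BPAF lower in 3 (background 6.53%). The list median was -0.64 (-0.51 without BPAF 1). Avpr1a, a vasopressin receptor that contracts smooth muscle, was at 4.41, 7.89 and 2.40 FPKM in BPB and at 1.93, 0.282 and 0.336 FPKM in BPAF (log2 difference -1.68, SE 0.41, limma adjusted p = 0.211). On the skeletal muscle list 1 of 6 tested members fell, Myh2 (background 0.286%), and 9 further genes of that list did not reach the level for testing. Ckm, the muscle creatine kinase, was at 56.4, 53.5 and 70.0 FPKM in BPB and at 15.8, 2.66 and 1.06 FPKM in BPAF, with 3.92 to 5.95 FPKM in controls (log2 difference -3.59, SE 0.63, limma adjusted p = 0.0575). Acta1, skeletal actin, was at 215, 133 and 401 FPKM in BPB and at 85.9, 42.6 and 8.24 FPKM in BPAF (log2 difference -2.79, SE 0.76, limma adjusted p = 0.271). Ckm thus came close to the threshold and Acta1 did not, although the groups of neither gene overlapped.

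Urothelial genes had the second lowest median of the 43 lists after the 5 tested genes of the squamous epithelium list, but 0 of 17 passed. Their median log2 difference was -3.37, with BPAF below BPB without overlap in 11 (background 6.53%). Gata3, a transcription factor of the urothelium, was at 10.3, 18 and 16.6 FPKM in BPB and at 6.10, 0.231 and 0.434 FPKM in BPAF, and came nearest to the threshold (log2 difference -2.75, SE 0.58, limma adjusted p = 0.124). Foxa1, a forkhead factor of the same tissue, was at 12.9, 24.5 and 29.1 FPKM in BPB, at 8.73 FPKM in BPAF 1 and at 0 in BPAF 2 and 3. Without BPAF 1 the list median was -4.46, and 13 of the 17 genes passed by limma, against 1.89% of all tested genes called lower. Foxa1 then had a log2 difference of -4.46 (limma adjusted p = 0.000394). Krt4, a keratin of squamous epithelium, was at 21.3, 36.7 and 28.0 FPKM in BPB and at 8.89, 0.0643 and 0.0351 FPKM in BPAF (log2 difference -3.71, SE 0.74, limma adjusted p = 0.105).

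The share that BPAF 1 kept of the BPB level differed between these lists. On the urothelium list BPAF 1 was at a median 62.8% of the BPB mean (39.4% to 115%), on the smooth muscle list at 36.4% (9.52% to 64.2%) and on the list of bladder muscle and mesenchyme at 16.9% (8.65% to 81.4%). BPAF 2 and 3 were at 0.380%, 24.2% and 0.657% on the same lists. These are values of single libraries with no test. The urothelial mean was high in all 3 BPB libraries and in BPAF 1 and low in the other 5, and its part in the differences between BPAF and BPB was not tested beyond the fit with that mean as a covariate.

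**Figure D3:**
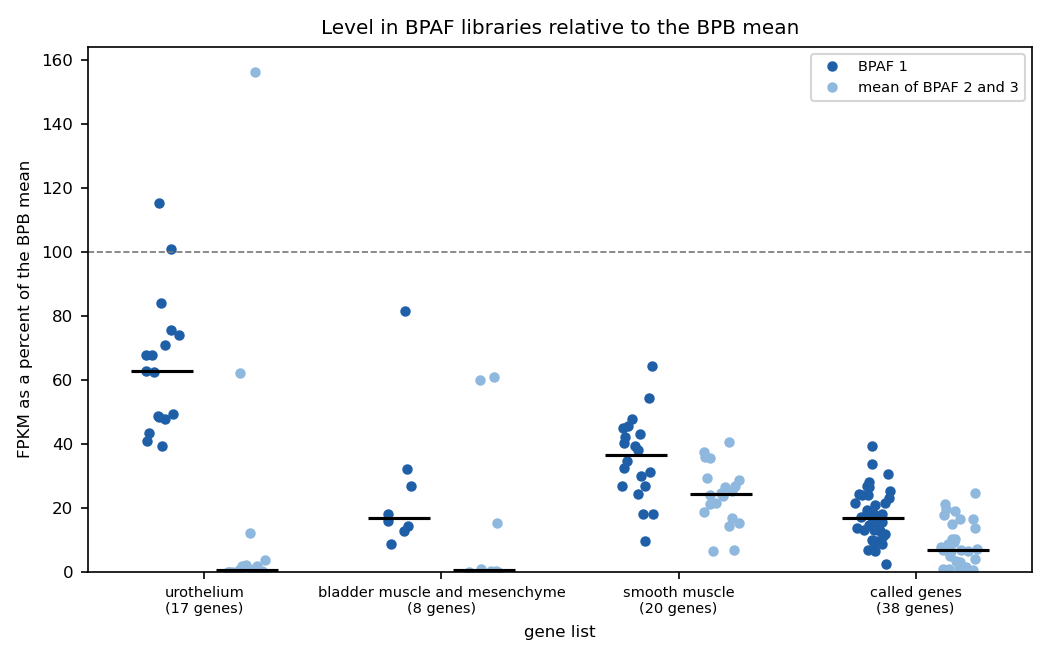
Level in BPAF 1 (dark points) and the mean of BPAF 2 and 3 (light points) as a percent of the BPB mean, per gene, for 3 gene lists and for the 38 genes that fell. Black lines are medians, and the dashed line marks the BPB mean at 100%. In BPAF 1 the median is 62.8% for urothelium and 16.9% for bladder muscle and mesenchyme.

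Enzymes that handle foreign compounds were lower on average in BPAF, without a call. On the xenobiotic metabolism list 22 of 26 tested members had a lower mean in BPAF, 8 of them without overlap of the groups. Over all tested genes these shares were 41.2% and 6.53%. The list median was -1.14 (-1.51 without BPAF 1, when limma called 8 lower, against 1.89% of all tested genes). Cyp1a1, the cytochrome induced through the aryl hydrocarbon receptor, was at 1.10, 4.72 and 5.10 FPKM in BPB and at 0.476, 0.131 and 0.314 FPKM in BPAF (log2 difference -1.69, SE 0.38, limma adjusted p = 0.154). Gstm3, a glutathione transferase, was at 1.72, 3.13 and 3.36 FPKM in BPB and at 1.07, 0 and 0.114 FPKM in BPAF (log2 difference -1.47, SE 0.31, limma adjusted p = 0.120). For Cyp1a1 all BPAF libraries were under 0.5 FPKM, whereas for Gstm3 BPAF 1 lay nearer to BPB. On the list of fibrillar matrix and its cross-linking 20 of 24 had a lower mean in BPAF, 5 without overlap, at a median of -0.52 (-0.44 without BPAF 1). Col14a1, a collagen bound to fibrils, was at 21.6, 14.4 and 11.3 FPKM in BPB and at 8.80, 3.60 and 2.42 FPKM in BPAF (log2 difference -1.60, SE 0.45, limma adjusted p = 0.292). On the list of heat shock and endoplasmic reticulum stress 18 of 25 members had a higher mean in BPAF, at a median of 0.37. Over all tested genes 7804 of 13269 had a higher mean in BPAF. On this list the groups were apart in 4 with BPAF higher (background 6.5%) and in 4 with BPAF lower (background 6.53%). Among the latter, the inducible heat shock proteins Hspa1a and Hspa1b stood lower in all 3 BPAF libraries than in all 3 BPB libraries. Hspa1b was at 18, 15.9 and 21.6 FPKM in BPB and at 6.65, 7.33 and 6.03 FPKM in BPAF (log2 difference -1.34, SE 0.27, limma adjusted p = 0.105), and 18.3 to 34.4 FPKM in controls. Its spread within BPAF was small and BPAF 1 did not stand apart. Hspa1a and Hspa1b are near-identical copies that can share reads, so their values are uncertain.

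In the other direction 251 genes had an unadjusted p under 0.05 with BPAF higher, against 661 with BPAF lower, and the smallest limma adjusted p was 0.106. The 12 named genes with the smallest p and no overlap are given as not passing. Tmem86a, a membrane protein that hydrolyses lysoplasmalogen, was at 9.03, 12.9 and 8.33 FPKM in BPB, at 25.6, 35.4 and 25.1 FPKM in BPAF and at 25.0 to 44.2 FPKM in controls (log2 difference 1.43, SE 0.29, limma adjusted p = 0.106). Prom1, a membrane protein of epithelial protrusions, was at 2.78, 4.09 and 3.07 FPKM in BPB and at 9.78, 10.9 and 8.96 FPKM in BPAF, with 8.12 to 16.2 FPKM in controls (log2 difference 1.34, SE 0.27, limma adjusted p = 0.113). For both genes the BPAF libraries lay in or near the control range and BPB below it. Lox, the enzyme that cross-links collagen and elastin, was at 6.40, 4.22 and 10.1 FPKM in BPB and at 16.1, 13 and 26.2 FPKM in BPAF (log2 difference 1.31, SE 0.35, limma adjusted p = 0.268). Its controls, at 52.3 to 73.7 FPKM, lay above both exposed groups. Mogat2, an acyltransferase of triglyceride synthesis, was at 2.31, 1.54 and 3.17 FPKM in BPB and at 6.18, 6.03 and 5.55 FPKM in BPAF (log2 difference 1.08, SE 0.24, limma adjusted p = 0.155). Foxp1, a forkhead factor, was at 0.817, 1.08 and 1.09 FPKM in BPB and at 2.12, 2.90 and 4.27 FPKM in BPAF (log2 difference 1.01, SE 0.24, limma adjusted p = 0.198). For Mogat2 and Foxp1 BPAF lay above the controls, which were at 2.03 to 2.98 and at 0.736 to 1.23 FPKM.

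**Figure D4:**
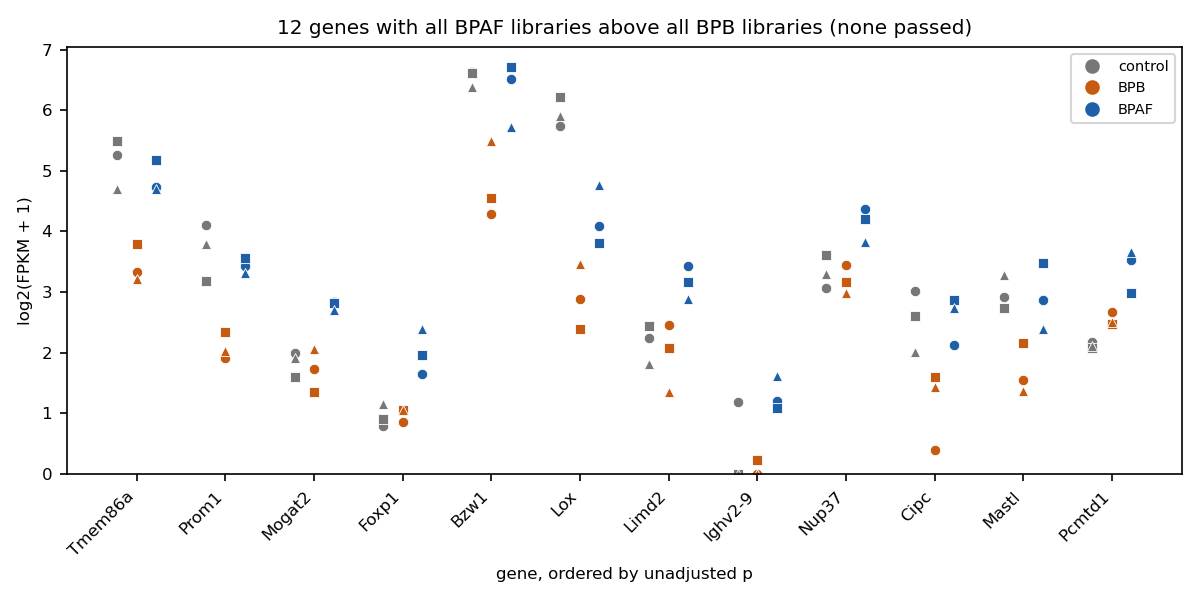
Level as log2(FPKM + 1) in each library of the 12 named genes whose 3 BPAF libraries all lay above the 3 BPB libraries with the smallest unadjusted p (grey controls, orange BPB, blue BPAF; circles, squares and triangles are replicates 1, 2 and 3). For Tmem86a and Prom1 BPAF lies near the controls, for Lox below them and for Mogat2 and Foxp1 above them, and none of the 12 passed.

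The other 7 genes were Bzw1, Limd2, Ighv2-9, Nup37, Cipc, Mastl and Pcmtd1, with log2 differences from 0.84 to 1.54. Cipc, an inhibitor of the clock protein CLOCK, was at 0.321, 2.03 and 1.72 FPKM in BPB and at 3.37, 6.32 and 5.68 FPKM in BPAF (log2 difference 1.43, SE 0.39, limma adjusted p = 0.271). Mastl, a kinase that holds cells in mitosis, was at 1.94, 3.48 and 1.58 FPKM in BPB and at 6.33, 10.1 and 4.27 FPKM in BPAF (log2 difference 1.22, SE 0.33, limma adjusted p = 0.276). Without BPAF 1, 3 named genes passed with BPAF higher, and they are given here after their values had been seen. Sox9, a factor of glandular progenitors, was at 3.02, 1.73 and 3.07 FPKM in BPB and at 1.81, 11.9 and 11.1 FPKM in BPAF, and its log2 difference was 1.10 with BPAF 1 and 1.82 without it (limma adjusted p = 0.803 and 0.0366). Krt12, a keratin best known from the cornea, was at 0.814, 0.657 and 1.25 FPKM in BPB and at 1.09, 14.6 and 16.6 FPKM in BPAF, and its log2 difference was 2.14 with BPAF 1 and 3.13 without it (limma adjusted p = 0.406 and 0.000680). Cbs, an enzyme of cysteine synthesis, was at 1.03, 11 and 13.7 FPKM in BPAF 1 to 3 (log2 difference 0.81 with and 1.71 without BPAF 1, limma adjusted p = 0.977 and 0.0382). In all 3 genes BPAF 1 was the lowest BPAF library, within the BPB range for Sox9 and Krt12 and below it for Cbs.

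Cell cycle genes had a higher mean in BPAF than in BPB, but the difference rested on BPAF 1 and 2. Against the controls, the median difference of the mitosis list was -0.08 in BPAF and -1.09 in BPB. For the DNA replication list it was 0.70 in BPAF and -0.32 in BPB. All 25 tested mitosis genes and all 23 DNA replication genes had a higher mean in BPAF, beside 7804 of all 13269 tested genes. The list medians were 0.98 each, and 0 of either list passed. BPAF 1 and 2 lay above all 3 BPB libraries in 25 of 25 mitosis genes, whereas BPAF 3 did so in 1, and BPAF 3 was the lowest BPAF library in all 25. Over all tested genes these shares were 16.5%, 32.5% and 36.5%. Top2a, the topoisomerase of dividing cells, was at 6.04, 4.01 and 3.38 FPKM in BPB and at 19.5, 25.7 and 5.26 FPKM in BPAF (log2 difference 1.49, 95% interval 0.28 to 2.70, limma adjusted p = 0.502). Mki67, the proliferation marker, was at 8.96, 4.88 and 4.53 FPKM in BPB and at 11.8, 25.5 and 5.24 FPKM in BPAF (log2 difference 0.90, SE 0.55, limma adjusted p = 0.922). Mcm7, a subunit of the replicative helicase, was at 8.16, 7.63 and 7.21 FPKM in BPB and at 14.6, 21.3 and 12.2 FPKM in BPAF (log2 difference 0.94, SE 0.30, limma adjusted p = 0.406). For Mcm7 the groups did not overlap, whereas for Top2a and Mki67 BPAF 3 fell within the BPB range. The medians were 0.54 for mitosis and 0.47 for DNA replication without BPAF 2, 0.84 and 0.83 without BPAF 1, and 1.55 and 1.5 without BPAF 3.

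Some immune lists and the vessel list had higher means in BPAF, others did not, and 0 of their members passed. Over all tested genes, 7804 of 13269 had a higher mean in BPAF. On the list of interferon-stimulated genes 21 of 24 had a higher mean, 8 without overlap (background 6.5%), at a median of 0.73 (0.48 without BPAF 1). Rtp4, a chaperone induced by interferon, was at 11.7, 5.74 and 3.03 FPKM in BPB and at 28.1, 16.2 and 14.4 FPKM in BPAF (log2 difference 1.49, SE 0.58, limma adjusted p = 0.581), with 21.5 to 102 FPKM in controls. The list's mean was highest in control 1, at 6.06, against 2.11 to 3.26 in the exposed libraries. The 7 T and natural killer cell genes, 5 B and plasma cell genes and 8 MHC class II genes tested all had a higher mean in BPAF, at medians of 0.97, 1.57 and 0.49. The T and natural killer cell median was 0.48 without BPAF 3. The macrophage median was 0.20, with 10 of 13 means higher, and -0.41 without BPAF 1. Complement genes had 7 of 13 means lower. Gzma, a protease of cytotoxic cells, was at 4.29, 3.06 and 1.61 FPKM in BPB and at 8.88, 4.6 and 25.6 FPKM in BPAF (log2 difference 1.57, SE 0.62, limma adjusted p = 0.598). Igkc, the kappa light chain constant region, was at 37.3, 18.2 and 40.2 FPKM in BPB and at 116, 230 and 55.7 FPKM in BPAF (log2 difference 1.88, SE 0.91, limma adjusted p = 0.783). The library that was highest differed from gene to gene, BPAF 3 for Gzma and BPAF 2 for Igkc. The median of MHC class II was 0.05 without BPAF 1, which was the highest BPAF library for all 8. All 11 endothelial genes had a higher mean in BPAF at a median of 0.38, with groups apart in 0. The median was 0.58 without BPAF 1 and 0.11 without BPAF 3, which alone lay above all BPB libraries in 10 of the 11.

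No difference passed among the receptors through which bisphenols are studied, and their intervals allow differences in either direction. Esr1, estrogen receptor alpha, was at 14.7, 20.1 and 13.2 FPKM in BPB and at 12.9, 27.6 and 23.1 FPKM in BPAF, a log2 difference of 0.34 with a 95% interval from -0.37 to 1.05 (limma adjusted p = 0.985). Pgr, the progesterone receptor and an estrogen target, was at 12.5, 22.4 and 8.10 FPKM in BPB and at 13, 30.4 and 15.7 FPKM in BPAF, a log2 difference of 0.45 with a 95% interval from -0.48 to 1.39 (limma adjusted p = 0.985). Both groups overlapped for these genes. Esr2, estrogen receptor beta, was under 0.17 FPKM in all 9 libraries and was not tested. Greb1, an estrogen-induced coactivator, was at 1.07, 4.23 and 3.91 FPKM in BPB and at 0.682, 8.33 and 4.67 FPKM in BPAF, with a 95% interval of its log2 difference from -1.25 to 1.75. Ltf, lactotransferrin of the estrogen-stimulated epithelium, ran from 7.09 to 117 FPKM in BPB and from 10.6 to 419 FPKM in BPAF, with an interval from -1.99 to 4.41. The estrogen-induced secretory list had a median of 0.75, which was -0.47 without BPAF 2, and 0 of 13 members passed. Its groups were apart in 1 member with BPAF lower, Sprr2a3 (log2 difference -3.45), and 1 with BPAF higher, Sprr2g (1.60). On the list of other estrogen targets 0 of 13 passed. Its groups were apart in 2 with BPAF lower (background 6.53%) and 0 with BPAF higher. These were Ckb (log2 difference -1.43, 95% interval -2.26 to -0.59, limma adjusted p = 0.258) and Cdkn1a (-1.27). On the luminal epithelium list 0 of 15 passed and the median was 0.31, which was -0.18 without BPAF 2. Over all tested genes the median 95% interval reached 0.72 to either side of the log2 difference, so a missed threshold does not show that the compounds acted alike.

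The remaining lists also held no gene that passed. The medians of all 43 lists are drawn in the plot of list medians. Wnt2b had the smallest adjusted p on the list of WNT ligands, receptors and feedback, and Id4 on that of TGF-beta, BMP and activin. Wnt2b, a WNT ligand, was at 1.21, 1.73 and 1.43 FPKM in BPB and at 0.320, 0.0444 and 0.226 FPKM in BPAF (log2 difference -1.04, SE 0.22, limma adjusted p = 0.134). Id4, an inhibitor of helix-loop-helix factors downstream of BMP, was at 55.1, 67.5 and 55.8 FPKM in BPB and at 27.0, 22.2 and 15.8 FPKM in BPAF, with 14.7 to 25.8 FPKM in controls (log2 difference -1.44, SE 0.29, limma adjusted p = 0.103). For both genes BPB lay above the other 6 libraries. The circadian clock, cholesterol synthesis and mitochondrially encoded lists had medians of -0.18, -0.01 and -0.03 (-0.05, -0.09 and 0.10 without BPAF 1), with groups apart for 0 members of each.

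**Figure D5:**
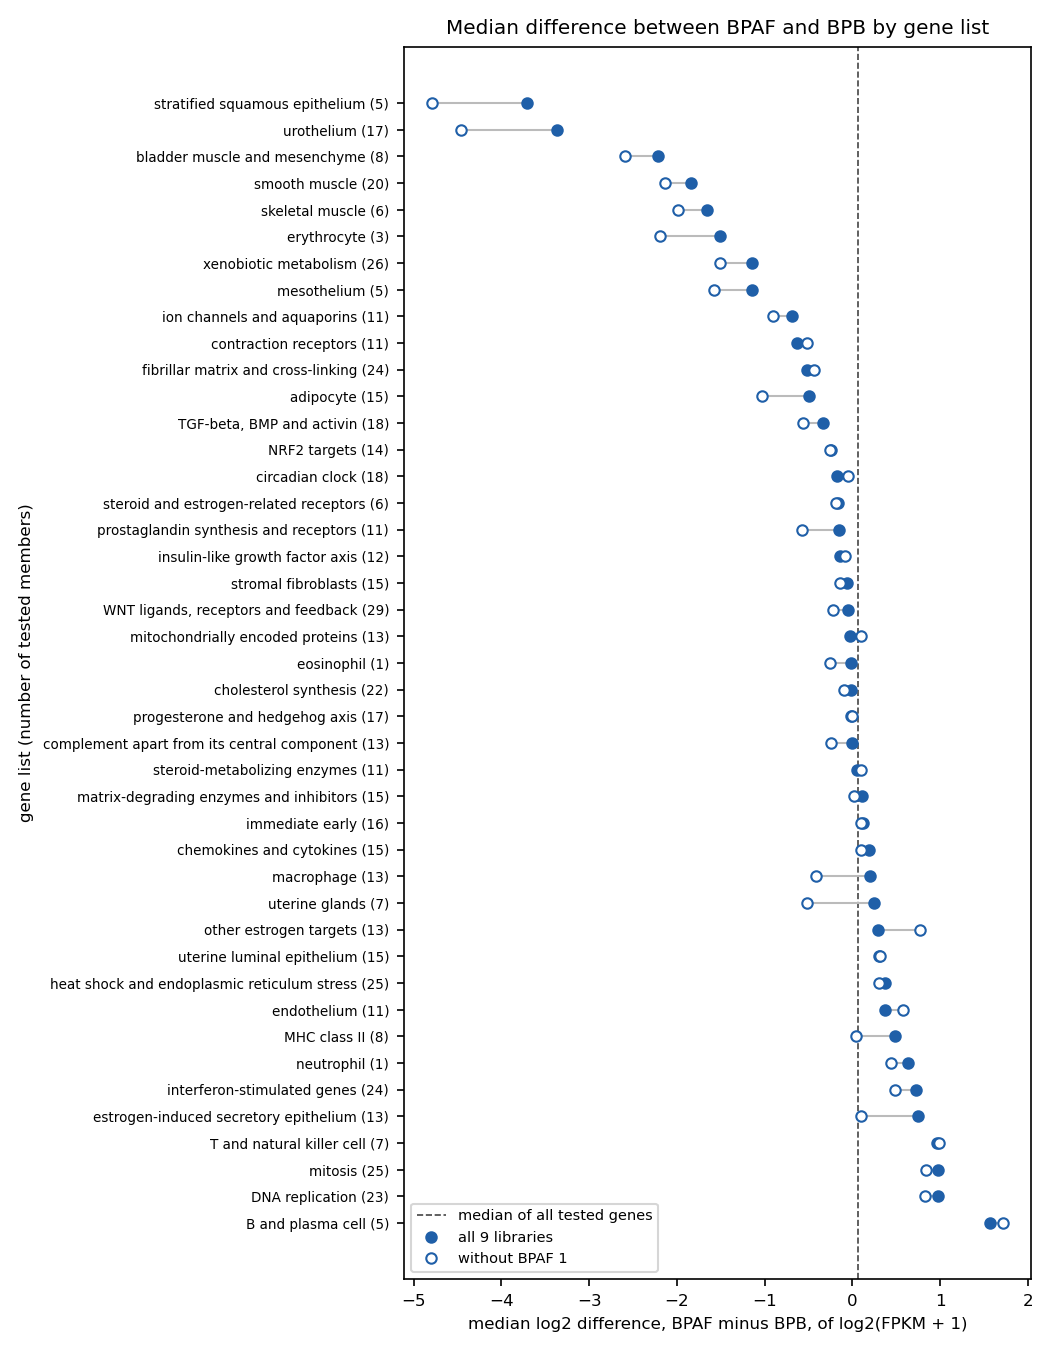
Median log2 difference, BPAF minus BPB, of each of 43 gene lists (number of tested members in brackets), with all 9 libraries in the fit (filled) and without BPAF 1 (open). The dashed line is the median of all tested genes at 0.07. Urothelium moves from -3.37 to -4.46 without BPAF 1, smooth muscle from -1.83 to -2.13, and mitosis stays above 0.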

How the data were processed

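RNA from uterus was sequenced with a stranded mRNA kit, per the labels' protocols. The authors deposited 1 value per gene symbol and library, read as FPKM from the values since the file headers name no unit. Aligner, build, annotation and strand use: not given in the sources used here. Depth was recovered from the size of 1 read in the FPKM values. Of 34745 lines per file, 126 with 59 repeated symbols were left out. Python 3.11.15 was used, and limma 3.58.1 in R 4.3.3 was run with trend and robust estimation on log2(FPKM + 1) of all 9 libraries, two-sided, with Benjamini-Hochberg adjustment over 13269 genes. A log2 difference on this scale understates changes of low genes.

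Genes and the 43 lists were chosen with earlier results of these data known. The named genes were, per direction, up to 12 called genes with a gene name, no overlap of groups, a higher group mean of at least 1 FPKM and the largest log2 difference, filled up by the smallest p; up to 4 members per list by p; every called member; and Pgr, Esr1, Esr2, Gper1, Ltf, Greb1 and Mki67. Other genes are named as chosen after their values were seen. Same-numbered BPB and BPAF libraries correlated at 0.332, 0.334 and 0.457 in their deviations from group means, and same-numbered controls and exposed libraries at -0.411 to -0.062. BPB and BPAF libraries of different numbers correlated at -0.318 to -0.093. Controls and exposed libraries of different numbers correlated at -0.238 to 0.458, so values of this size also occurred there without a shared number. The block was also fitted because of the BPB and BPAF pairs, although the labels state no shared litter or day. The fit was run on simulated data with changes placed only in well-expressed genes and independent noise of the same spread in every library. Changes in low genes and a divergent library such as BPAF 1 were not simulated, so that run does not bear on the calls. RefSeq promoters of GRCm38.p6 and GENCODE M21 overlaps were used for description only.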

Additional observations from a re-analysis of the deposited data

How the results depend on the processing

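The number of genes lower in BPAF, 38 in the main analysis, was 147 with array weights (4 higher), 72 at an adjusted p under 0.1, 11 with no filter, 8 with equal FPKM sums and 0 with a pseudocount of 0.1 or 0.01, with only genes at 1 FPKM or more in all 6 libraries, with the 6 libraries fitted alone, with the replicate block, with both of these (chosen after seeing the data) or with the urothelium mean as a covariate. Leaving out 1 library each gave 0 to 251 genes lower and 0 to 6 higher. The cause of these changes was not tested. An unadjusted p under 0.05 was found for 830 genes with the block, 1089 with the 6 libraries alone and 1739 with both.

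Among named genes that did not pass, the sign turned with the urothelium covariate for Cbs (-1.28), Esr1 (-0.33), Greb1 (-1.28), Krt12 (-0.15), Pgr (-0.085), Sox9 (-0.64) and Upk3a (0.46). Upk3a is itself averaged into that covariate, so its turn is circular. Within groups the covariate differed mainly between BPAF 1 (5.73) and BPAF 2 and 3 (1.45 and 1.04), so the other turns rest largely on BPAF 1. For Greb1 the sign also turned with array weights (-0.17), without BPAF 2 (-0.28) and without BPB 1 (-0.18). Leaving out 1 library each gave -0.28 to 0.95 for Greb1. At these depths levels under about 0.08 FPKM rest on 1 read for a transcript of 1 kilobase, so differences among the lowest values were not detectable.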
